A study of Mus musculus with 15 samples.

Results

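Levels of 7 genes set apart the adipose stromal cells that express Il33 from those that do not, and these genes were followed into the stroma of the lung, the adipose endothelium and the lung epithelium. Il33, Shisa3, Stc2 and Cd200 were higher in Il33+ white adipose tissue multipotent stromal cells (WAT-MSC), and Adam23, Pcdh1 and Fam150b were higher in Il33- WAT-MSC. The genes were chosen by that contrast, in these same libraries, and are 7 of the 10222 genes (8 of the 12698 transcripts) in the expression table, where all 7 were found. Their values in WAT-MSC therefore describe the choice, and no comparison with a WAT-MSC population was tested.

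The data are RNA-seq profiles of 5 populations sorted from mice, with 3 libraries each from independent experiments. All cells came from C57BL/6 mice heterozygous for an Il33-citrine reporter allele, so that every population carried 1 reporter allele at the locus measured. WAT-MSC, labelled as mesenteric, were gated as CD45-, EpCAM-, CD31- and CD24- cells positive for PDGFRα, CD34, Sca1 and podoplanin, and were then split into citrine+ and citrine- cells. Lung Il33+ MSC were the Il33+ stromal cells of the lung, whose further gates are not given apart from those of WAT, and WAT endothelial cells were sorted as CD31+ and lung epithelial cells as EpCAM+. No citrine- lung stroma was among the populations, so the lung samples hold the Il33+ side of the contrast only. The Il33 reporter was part of the gate of 3 populations, and the level of Il33 in those is a result of the sort. Age, sex and the number of mice pooled per library are not given in the sources used here.

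IL-33 is a nuclear cytokine of the IL-1 family that is released when cells are stressed or damaged, and it acts through the receptor ST2 on group 2 innate lymphoid cells (ILC2s), regulatory T cells and mast cells. In adipose tissue and lung it sustains ILC2s and, through their IL-5 and IL-13, eosinophils. Fibroblast-like stromal cells, endothelium and, in some organs, epithelium are known sources. The other genes encode a secreted inhibitor of the protease PAPP-A (Stc2), a secreted ligand of the receptor ALK (Fam150b, now named Alkal2), an immune inhibitory surface ligand (Cd200), a membrane protein of the SHISA family that holds Frizzled and FGF receptors in the endoplasmic reticulum (Shisa3), a disintegrin without protease activity that binds LGI proteins (Adam23) and a protocadherin (Pcdh1).

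Il33 lies on chromosome 19 from 29925113 to 29960718 on the plus strand (GRCm38, the build called mm10 in the submitters' processing notes). The table holds 2 Il33 transcripts, and they start from separate promoters 20676 bases apart. The sequences upstream of both starts are shown because the transcripts are reported separately, and those of Shisa3 and Stc2 because these genes had the largest differences in the adipose contrast that chose the members. Each sequence is the 250 bases before the annotated start (RefSeq, GRCm38.p6), read 5′ to 3′ on the gene's own strand, and capitals mark matches to a short motif.

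Il33 distal promoter, chr19:29924863-29925112, plus strand: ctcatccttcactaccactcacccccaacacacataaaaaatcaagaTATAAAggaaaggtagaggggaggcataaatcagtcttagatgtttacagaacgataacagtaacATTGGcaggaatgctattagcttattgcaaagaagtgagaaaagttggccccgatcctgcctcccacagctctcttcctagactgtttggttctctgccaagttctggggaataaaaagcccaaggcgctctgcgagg
Il33 proximal promoter, chr19:29945540-29945789, plus strand: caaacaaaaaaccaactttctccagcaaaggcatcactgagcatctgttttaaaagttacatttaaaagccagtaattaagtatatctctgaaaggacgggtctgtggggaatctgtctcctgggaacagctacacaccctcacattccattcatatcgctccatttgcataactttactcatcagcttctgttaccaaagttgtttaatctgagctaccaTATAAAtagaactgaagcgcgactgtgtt
Shisa3 promoter, chr5:67607633-67607882, plus strand: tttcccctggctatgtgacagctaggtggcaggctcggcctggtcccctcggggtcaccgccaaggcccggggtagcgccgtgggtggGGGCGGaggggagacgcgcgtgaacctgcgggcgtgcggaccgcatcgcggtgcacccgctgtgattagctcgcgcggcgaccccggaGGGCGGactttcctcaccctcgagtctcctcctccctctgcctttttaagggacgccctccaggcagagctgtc
Stc2 promoter, chr11:31370062-31370311, minus strand: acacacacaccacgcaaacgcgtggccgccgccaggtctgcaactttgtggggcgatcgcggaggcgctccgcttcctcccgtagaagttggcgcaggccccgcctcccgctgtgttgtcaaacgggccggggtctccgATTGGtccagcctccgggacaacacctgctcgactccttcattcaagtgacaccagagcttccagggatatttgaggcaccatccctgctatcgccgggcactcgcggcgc

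The motifs searched on both strands were the TATA box (TATAAA), the CCAAT box (CCAAT), the GC box (GGGCGG), the AP-1 site (TGANTCA) and the STAT site (TTCNNNGAA), where N is any base. The proximal Il33 promoter held 1 TATA match, starting 29 bases before the transcript start, and the distal promoter held a TATA match 203 bases and a CCAAT match 138 bases before it. Shisa3 had GC box matches 162 and 74 bases before its start, and Stc2 had 1 CCAAT match, 111 bases before. None of these 4 sequences matched the AP-1 or STAT motif, and no matches overlapped. Among 32851 mouse promoters of the same length, 12.4% held a TATA match, 33.8% a CCAAT match, 32.7% a GC box match, 6.75% an AP-1 match and 7.02% a STAT match. The promoters differed in base composition. Both Il33 promoters had 4 CpG dinucleotides, under the median of 6 for all promoters, whereas Stc2 had 24 and Shisa3 25, above the upper quartile of 16. The GC content was 45.2% and 39.6% for distal and proximal Il33, 69.6% for Shisa3 and 64.4% for Stc2. Of the members whose sequence is not shown, Cd200 had 6 CpG dinucleotides and a GC box match 34 bases before its start, and Fam150b had 25 CpG dinucleotides and a GC box match 193 bases before. The Adam23 promoter had 27 CpG dinucleotides and no match to any of the 5 motifs. Its window, 63445641 to 63445890, runs past the locus start at 63445717 given below, so the promoter entry uses a different start. The Cd200 window, 45409054 to 45409303, likewise reaches inside the locus end at 45409060.

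The other members also occupy defined loci. Shisa3 lies on chromosome 5 from 67607883 to 67613987 (plus), Stc2 on chromosome 11 from 31359441 to 31370061 (minus), Cd200 on chromosome 16 from 45382111 to 45409060 (minus), Adam23 on chromosome 1 from 63445717 to 63596111 (plus), and Fam150b on chromosome 12 from 30884324 to 30893856 (plus). Of the 1509 exonic bases of Fam150b, 529 are also covered by exons of Acp1 on the opposite strand. The amplification kit does not mark strand, so reads of the 2 genes from this stretch cannot be told apart. Acp1 was at 1.86 to 15.7 RPKM in the lung epithelial libraries, in which Fam150b was listed at 0. No exonic base of the other 6 genes was covered by an exon of a neighbour.

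The libraries held 42711843 to 60773158 alignments (median 53038567), and values are RPKM, read counts scaled by transcript length and library size, summed over the transcripts of a gene. Pan-stromal markers (Pdgfra, Pdgfrb, Col1a1, Col1a2, Col3a1, Dcn, Lum, Thy1) summed to 4335 to 8978 RPKM in the 9 stromal libraries, endothelial markers to 477 to 528 in WAT endothelial cells against 2.93 to 39.8 in stroma and 46.0 to 66.1 in lung epithelial cells, and epithelial markers to at least 162010 in lung epithelial cells against 56.5 to 542 in the other populations, in the order the labels give. The endothelial libraries also held stromal markers at 1801 to 3725 RPKM, all 8 genes present, and lymphatic endothelial markers at 137 to 290 RPKM. Pericyte and smooth muscle markers were at 193 to 263 RPKM there, 103 to 113 RPKM in lung Il33+ MSC and 3.55 to 35.8 RPKM in WAT-MSC. In lung Il33+ MSC this sum was mainly Abcc9 and Kcnj8, at a mean log2(RPKM + 1) of 6.42 and 4.27. Mcam was at 1.79, Rgs5 at 0.57, Myh11 at 0.40 and Cspg4 at 0.33 in these cells. In WAT endothelial cells Rgs5 was at 7.54, Myh11 at 4.05 and Cspg4 at 1.59. Lung Il33+ MSC held epithelial markers at 179 to 542 RPKM and leukocyte markers at 182 to 226 RPKM. Lung epithelial libraries held leukocyte markers at 714 to 1385 RPKM, with Ptprc not analysed here. That sum was mostly Lyz2, at a mean log2(RPKM + 1) of 9.92 in lung epithelial cells and 6.98 in lung Il33+ MSC. The other markers in lung epithelial cells were Chil3 at 5.52, Cd68 at 3.64, Ear2 at 3.57, Csf1r at 1.92 and Cd52 at 1.88. Mesothelial markers summed to 41.9 to 134 RPKM in Il33+ WAT-MSC, 22.7 to 38.0 in Il33- WAT-MSC and 56.7 to 229 in WAT endothelial cells. A single epithelial transcript, Scgb1a1, made up 57.7% to 62.9% of the summed RPKM in lung epithelial libraries. Libraries of 1 population correlated at r = 0.779 to 0.960 across genes.

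In the contrast that selected the members, Shisa3 had the largest difference of 8448 genes, 3.98 on the log2(RPKM + 1) scale, followed by Stc2 at 3.67 and Cd200 at 3.18. Il33 itself came 5th at 3.08, behind Mmp3 at 3.09, which is not a member, and ahead of Abcc9 at 2.96. On the Il33- side the order was Adam23 at -2.83, Pcdh1 at -2.64, Plin2 at -2.59, which is not a member, and Fam150b at -2.58, followed by Agt at -2.48. All 7 members had libraries that did not overlap between Il33+ and Il33- WAT-MSC, as did 17.5% of the genes, and nothing is read from this count since the same values chose them.

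Il33, the cytokine that names the populations, was at overlapping levels in lung and adipose Il33+ stroma, intermediate in WAT endothelial cells and low in lung epithelial cells. Its RPKM was 38.7, 78.5 and 41.9 in the Il33+ WAT-MSC libraries and 47.0, 43.0 and 55.7 in the lung Il33+ MSC libraries. These groups overlapped, with the single highest value in Il33+ WAT-MSC replicate 2. In WAT endothelial cells Il33 was at 15.1, 15.98 and 21.4 RPKM, below every Il33+ stromal library and above all others. Il33- WAT-MSC, at 6.76, 4.31 and 4.49 RPKM, overlapped with lung epithelial cells, at 3.92, 4.05 and 6.40 RPKM. The citrine- gate thus left Il33 at 9.78% of the mean of the citrine+ gate, a level shared with the EpCAM+ cells. In bulk libraries, fewer cells of a type and less RNA per cell cannot be told apart.

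**Figure D1:**
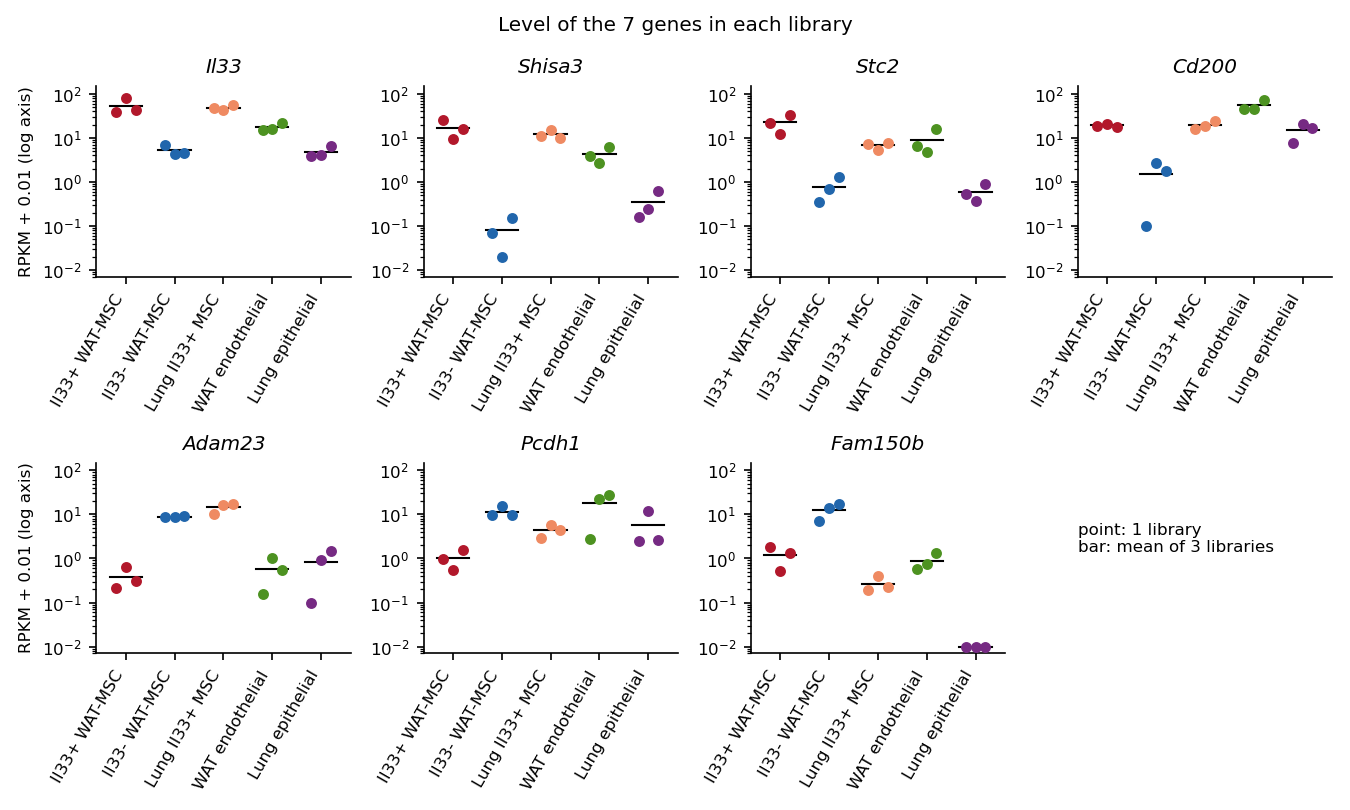
RPKM + 0.01 of each of the 7 genes on a log axis, with 1 point per library and a bar at the mean of the 3 libraries of a population. Il33, Shisa3 and Cd200 overlap between lung Il33+ MSC and Il33+ WAT-MSC and Stc2 is lower in the lung, whereas Adam23 at 10.0 to 17.5 RPKM and Fam150b at 0.18 to 0.38 RPKM in lung Il33+ MSC lie at opposite ends.

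Il33 was higher in the WAT endothelial than in the lung epithelial libraries, by 1.69 on the log2 scale (95% CI 0.94 to 2.43, limma adjusted p = 0.00551). This was the 1 comparison of Il33 in which neither population was gated on citrine. The difference kept its direction and its call in 16 of 16 other settings of the analysis, between 1.45 and 1.88. The endothelial libraries also held the 8 pan-stromal markers, at a median of 32.6%, 32.4% and 65.7% of their mean in Il33+ WAT-MSC. Il33 was at 28.5%, 30.1% and 40.3% on that scale. The part of stromal RNA in the endothelial Il33 was not tested. For the gated lung Il33+ MSC, Il33 was 1.43 higher than in WAT endothelial cells and 3.12 higher than in lung epithelial cells, given as a description.

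The 2 Il33 transcripts cannot be read as independent measurements. They share 2475 exonic bases and the same coding sequence of 798 bases, and differ in a noncoding first exon of 48 bases for the distal and 69 bases for the proximal promoter, so that 97.6% and 97.3% of their bases carry no information on which promoter was used. The distal transcript (NM_133775) was at 23.8, 48.5 and 25.8 RPKM in Il33+ WAT-MSC and at 28.7, 25.9 and 33.8 RPKM in lung Il33+ MSC. The proximal transcript (NM_001164724) was at 14.9, 30.0 and 16.01 RPKM in the former and at 18.3, 17.1 and 21.95 RPKM in the latter. The distal-to-proximal ratio stayed between 1.44 and 1.62 in the 15 libraries, while their summed level spanned 3.92 to 78.5 RPKM. By population the ratio was 1.61 ± 0.010 (SD, n = 3) in Il33+ WAT-MSC, 1.51 ± 0.0036 in Il33- WAT-MSC, 1.54 ± 0.030 in lung Il33+ MSC, 1.53 ± 0.040 in WAT endothelial cells and 1.49 ± 0.041 in lung epithelial cells. Il33+ WAT-MSC libraries were at 1.60 to 1.62, above every other library. How reads of the shared exons were divided between the transcripts is not given in the sources used here, so the ratio and its differences between populations cannot be told apart from that division, and no promoter use is read from them.

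**Figure D2:**
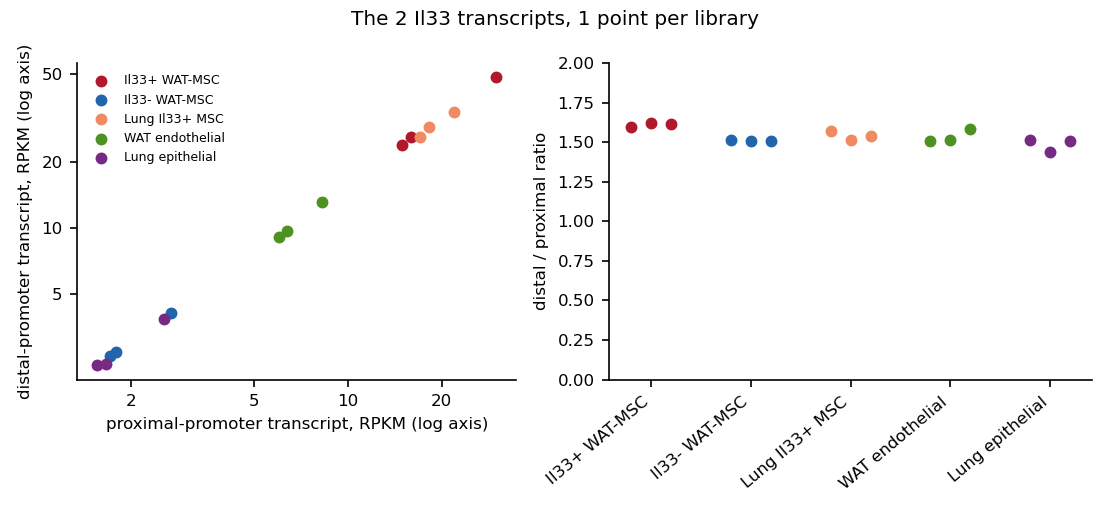
Left, RPKM of the distal against the proximal Il33 transcript on log axes, and right, their ratio, with 1 point per library. The points fall along a line from the lung epithelial to the Il33+ stromal libraries, and the ratio stays between 1.44 and 1.62.

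Of the 3 genes that accompanied Il33 in adipose stroma, Stc2 was lower in lung stroma and was also found in the endothelial libraries. STC2 binds and blocks PAPP-A, a protease that frees insulin-like growth factors from their binding proteins. Stc2 was at 22.1, 12.2 and 33.4 RPKM in Il33+ WAT-MSC, 7.39, 5.35 and 7.72 in lung Il33+ MSC and 6.42, 4.88 and 16.2 in WAT endothelial cells. Lung stroma therefore lay below every Il33+ WAT-MSC library, while endothelium overlapped with both. The endothelial libraries also held stromal markers, and the part of stromal RNA in their Stc2 was not tested. Il33- WAT-MSC at 0.34 to 1.29 RPKM and lung epithelial cells at 0.36 to 0.90 RPKM overlapped with each other at the bottom.

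Shisa3 ran parallel to Il33 with a wider span. SHISA proteins retain immature Frizzled and FGF receptors and so dampen WNT and FGF signals. Shisa3 was at 25.6, 9.47 and 16.2 RPKM in Il33+ WAT-MSC and at 10.9, 15.1 and 9.92 RPKM in lung Il33+ MSC, and these libraries overlapped. WAT endothelial cells followed at 3.90, 2.69 and 6.11 RPKM, and lung epithelial cells at 0.15, 0.23 and 0.63 RPKM. In Il33- WAT-MSC it was at 0.06, 0.01 and 0.14 RPKM. The order of the 3 Il33+ WAT-MSC libraries was not shared between the genes: replicate 2 had the highest Il33 but the lowest Shisa3 and Stc2.

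Cd200 was not restricted to stroma. CD200 restrains myeloid cells that carry its receptor. It was highest in WAT endothelial cells, at 46.3, 45.3 and 73.4 RPKM, above all other libraries. Lung Il33+ MSC at 15.7, 18.1 and 24.5 RPKM overlapped with Il33+ WAT-MSC at 19.04, 21.1 and 17.8 RPKM. Lung epithelial cells, at 7.77, 21.1 and 16.3 RPKM, overlapped with both, so that Il33- WAT-MSC at 0.09, 2.71 and 1.80 RPKM were below all other libraries. Endothelial markers summed to 46.0 to 66.1 RPKM in the epithelial libraries, and their part in the epithelial Cd200 was not tested.

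The 3 genes of Il33- WAT-MSC had different patterns outside adipose stroma. Adam23, whose product binds LGI proteins and integrins, was at 8.51, 8.67 and 8.97 RPKM in Il33- WAT-MSC and at 0.20, 0.63 and 0.30 RPKM in Il33+ WAT-MSC. In lung Il33+ MSC, although these were gated as citrine+, it was at 10.0, 16.1 and 17.5 RPKM, above all 3 Il33- WAT-MSC libraries. WAT endothelial cells at 0.15 to 1.01 RPKM and lung epithelial cells at 0.09 to 1.48 RPKM overlapped with Il33+ WAT-MSC. Adam23 was therefore high in 2 populations that lay at opposite ends for Il33.

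Fam150b shared with Adam23 its higher level in Il33- WAT-MSC and differed from it in lung stroma. It encodes a ligand that activates the receptor tyrosine kinase ALK. It was at 7.05, 13.6 and 16.8 RPKM in Il33- WAT-MSC, at 1.81, 0.50 and 1.30 RPKM in Il33+ WAT-MSC, and at 0.18, 0.38 and 0.21 RPKM in lung Il33+ MSC. WAT endothelial cells, at 0.57, 0.74 and 1.31 RPKM, overlapped with Il33+ WAT-MSC and lay above the lung stroma. It was listed at 0 in the 3 lung epithelial libraries. Among the 15 libraries, only the Il33- WAT-MSC libraries exceeded 1.81 RPKM.

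Pcdh1, a protocadherin of cell-cell contacts, varied widely between libraries of WAT endothelial and of lung epithelial cells. It was at 9.52, 15.6 and 9.47 RPKM in Il33- WAT-MSC and 0.96, 0.54 and 1.52 RPKM in Il33+ WAT-MSC, with lung Il33+ MSC between these at 2.95, 5.78 and 4.40 RPKM. In WAT endothelial cells replicate 1 was at 2.78 RPKM, while replicates 2 and 3 were at 21.9 and 28.2 RPKM. In lung epithelial cells replicate 2 stood at 11.8 RPKM, above the others at 2.45 and 2.60 RPKM. The lung stroma thus overlapped with both non-stromal populations.

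To ask which of these genes distinguish lung stroma from other cells, the 3 populations that had no part in choosing the members were compared with limma on log2(RPKM + 1), with Benjamini-Hochberg adjustment over all genes tested and a threshold of 0.05. Genes had to reach 1 RPKM in 3 of the 6 libraries compared. Fam150b passed this filter in none of the 3 comparisons, and Adam23 not in the comparison of endothelium with epithelium. Shisa3 and Stc2 passed against the epithelium, and Adam23 passed in both of its comparisons, only through the population in which they were high, so the counts of members called are not read as support. For these genes the adjusted p without any filter on low values, over all genes in the table, is therefore given as well.

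Against lung epithelial cells of the same organ, lung Il33+ MSC were higher in Shisa3, Adam23 and Stc2 and did not differ detectably in Cd200 or Pcdh1. The calls were 3 of the 5 members tested besides Il33, next to 24.4% of 9352 genes called higher and 18.5% called lower. Differences are on the log2(RPKM + 1) scale. Shisa3 was 3.27 higher (SE 0.29, adjusted p = 1.7e-05), Adam23 3.13 higher (SE 0.36, adjusted p = 0.000104) and Stc2 2.29 higher (SE 0.28, adjusted p = 0.000135). Without the filter the adjusted p was 8.68e-05 for Shisa3, 0.000439 for Adam23 and 0.000408 for Stc2. Cd200 differed by 0.43 (95% CI -0.36 to 1.21, adjusted p = 0.36) and Pcdh1 by -0.04 (95% CI -1.16 to 1.08, adjusted p = 0.954). The interval of Pcdh1 spans a change of over 1 log2 unit either way, and without lung epithelial replicate 2 its difference was 0.57.

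Against WAT endothelial cells, lung Il33+ MSC were higher in Adam23 and lower in Cd200, and the other 3 members tested did not pass the threshold. Fewer genes were called here, 3% of 8763 higher and 4.1% lower. Adam23 was 3.31 higher (SE 0.39, adjusted p = 0.00198) and Cd200 1.44 lower (difference -1.44, SE 0.29, adjusted p = 0.0222). Without the filter the adjusted p of Adam23 was 0.00668. The call of Cd200 was lost without lung Il33+ MSC replicate 1 (-1.31, adjusted p = 0.116), without its replicate 2 (-1.40, adjusted p = 0.113) or without endothelial replicate 2 (-1.56, adjusted p = 0.0544). Shisa3 was 1.34 higher (95% CI 0.52 to 2.16, adjusted p = 0.064). It passed in 5 of 16 other settings, with adjusted p from 0.0234 to 0.314 over all of them. Stc2 differed by -0.23 (95% CI -1.23 to 0.77, adjusted p = 0.827) and Pcdh1 by -1.38 (95% CI -3.02 to 0.27, adjusted p = 0.368). Without WAT endothelial replicate 1 the difference of Pcdh1 was -2.30 (adjusted p = 0.00218). Tissue and cell type differ together in this comparison and cannot be told apart.

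WAT endothelial cells, compared with lung epithelial cells, were higher in Il33 and in the 3 genes that went with it in adipose stroma. The calls covered 4 of the 5 members tested, beside 14.9% of 9261 genes called higher and 12.8% called lower. Stc2 was 2.53 higher (SE 0.48, adjusted p = 0.00515), Shisa3 1.93 higher (SE 0.39, adjusted p = 0.00675) and Cd200 1.87 higher (SE 0.40, adjusted p = 0.00933). Without the filter the adjusted p was 0.0077 for Stc2 and 0.00931 for Shisa3. All 8 pan-stromal markers were also higher in these endothelial than in the epithelial libraries, by a median of 3.79, and their part in the member differences was not tested. Pcdh1 was at 1.33 (95% CI -0.59 to 3.25, adjusted p = 0.294), and without endothelial replicate 1 it was 2.26 higher (adjusted p = 0.0177). With median-ratio scaling in place of the deposited scale, 43.2% of all calls in this comparison were higher against 53.8% in the fit as given, and the median over all genes moved by -0.21. The 4 members stayed higher and called under that scaling. Again tissue and cell type differ together.

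**Figure D3:**
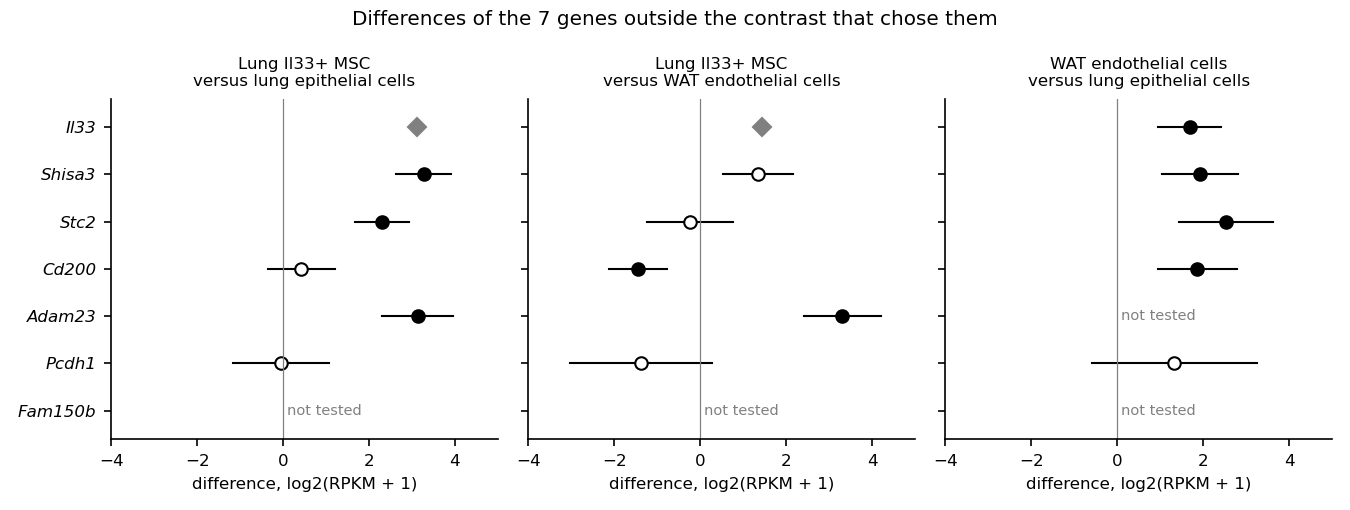
Difference in mean log2(RPKM + 1) of each gene in the 3 comparisons, first population minus second, with 95% confidence intervals from limma. Filled circles passed an adjusted p of 0.05, open circles did not, and grey diamonds mark Il33 where it was part of the gate, given without a test.

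Libraries were sequenced in 2 lanes that each held part of every population. Within lane 1 and within lane 2 each called member kept its direction. Against lung epithelial cells, Adam23 was 3.34 and 3.03 higher in lung Il33+ MSC, Shisa3 3.37 and 3.23 and Stc2 2.46 and 2.21 in lanes 1 and 2. Against WAT endothelial cells, Adam23 differed by 2.86 and 3.52 and Cd200 by -1.48 and -1.75. Il33 was 1.75 and 1.87 higher in endothelium than in epithelium. These values rest on 1 or 2 libraries per population.

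The endothelial libraries held pan-stromal markers beside the Il33+ stromal genes. Set against the mean of Il33+ WAT-MSC of the same tissue, the 8 pan-stromal markers were at a median of 32.6%, 32.4% and 65.7% in the 3 WAT endothelial libraries. Il33 was at 28.5%, 30.1% and 40.3% on this scale, Shisa3 at 22.8%, 15.8% and 35.8% and Stc2 at 28.4%, 21.6% and 71.8%. Replicate 3 was highest in all of these. It also had the largest size factor in the median-ratio scaling, 1.30 against 0.73 and 1.06 in replicates 1 and 2. From replicate 1 to 2 the marker median changed little, Il33 rose, and Shisa3 and Stc2 fell. Cd200 was at 239%, 234% and 380% of Il33+ WAT-MSC, also highest in replicate 3. The single pan-stromal markers ranged from 14.8% to 64.3%, from 20.9% to 84.2% and from 48.2% to 124% in replicates 1 to 3. Shisa3 lay below this range in replicates 2 and 3, and Il33 in replicate 3. The part of stromal cells in the endothelial values of Il33, Shisa3 and Stc2 was not tested.

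Lung epithelial libraries held little stromal RNA. The same 8 markers were at a median of 2.04%, 1.83% and 3.83% of Il33+ WAT-MSC there. Shisa3 was at 0.88%, 1.35% and 3.69%, and Stc2 at 2.31%, 1.60% and 3.99%, the highest value again in the library with the highest marker median. Il33 was at 7.39%, 7.64% and 12.1%, and Cd200 at 40.2%, 109% and 84.3%. Il33 thus lay above the marker median in each library, and the highest single stromal marker, at 11.9%, 7.97% and 8.48%, was above Il33 in replicates 1 and 2 and below it in replicate 3. Against the stroma of the same organ, lung Il33+ MSC, the marker medians were 1.83%, 1.22% and 2.42%. On this scale Stc2 was at 7.63%, 5.28% and 13.2%, above the marker median in each library, Il33 at 8.07%, 8.34% and 13.2%, and Shisa3 at 1.25%, 1.92% and 5.26%. The position of Stc2 relative to the markers therefore depended on the stroma taken as reference. The part of stromal RNA in the epithelial values was not tested.

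**Figure D4:**
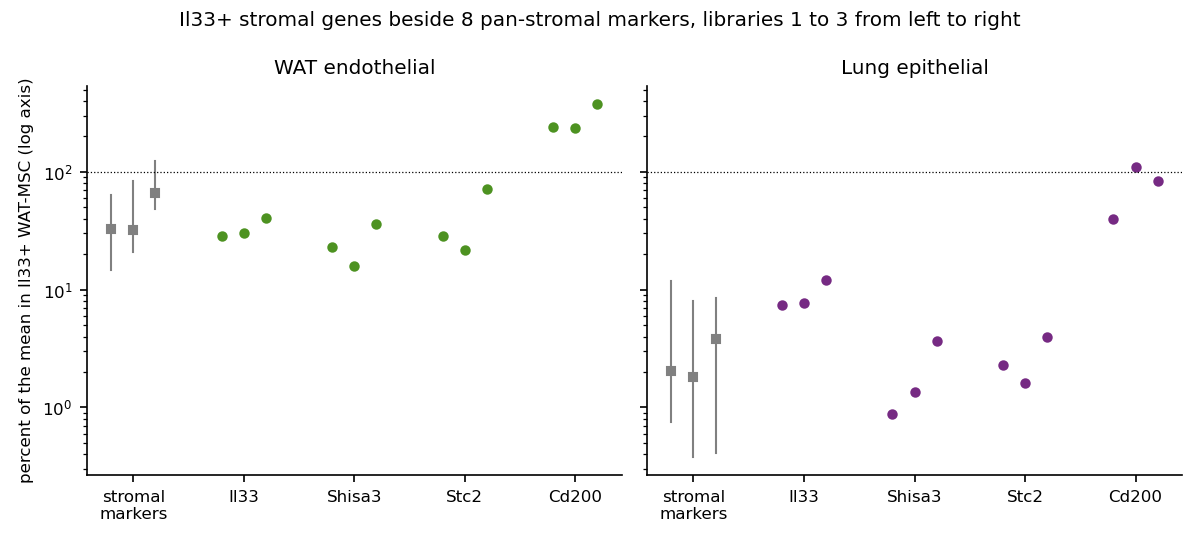
Il33, Shisa3, Stc2 and Cd200 in each WAT endothelial (left) and lung epithelial (right) library, as a percent of their mean in Il33+ WAT-MSC on a log axis, beside the median (grey squares) and range (grey lines) of 8 pan-stromal markers. In endothelium Stc2 lies within the range of the stromal markers in each library. Il33 lies below that range in replicate 3 and Shisa3 in replicates 2 and 3, while Cd200 lies above 234%.

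Partner genes of the members were counted from lists of their pathways, beside the shares of all genes called that are given above. Some passed the filter only through the population in which they were high. Examples are Pappa, Pappa2, Tslp, Lgi4 and Pcdh19 against the lung epithelium and Pappa2 against WAT endothelial cells. The counts of listed genes called are therefore not read as support. Of 18 listed IL-33 receptor and signalling genes 15 were in the table. Il1rl1, which encodes ST2, was not analysed here. In lung Il33+ MSC against lung epithelial cells, 7 of these 15 were higher and 2 lower, with a median difference of 0.60 beside 0.13 over all genes. Those higher were the co-receptor gene Il1rap (1.00), the adaptor Myd88 (2.04), Irak3 (3.28) and Irak4 (1.56), and the NF-κB genes Nfkb1 (1.07), Rela (1.98) and Nfkbia (1.96). Irak2 (-1.15) and Chuk (-1.35) were lower. None of the 15 passed against WAT endothelial cells (median 0.25 beside 0.14 over all genes). Between endothelium and epithelium Irak3 (3.03), Rela (1.61) and Nfkbia (1.45) were higher and Chuk (-1.41) was lower, with a median of 0.68 beside 0.08.

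Related cytokines and enzymes that can cleave IL-33 gave few calls. Of 4 IL-1 family ligands and alarmins in the table, Tslp was 1.51 higher in lung Il33+ MSC than in lung epithelial cells. It was at 1.66 to 2.27 RPKM against at most 0.11. Since Tslp passed the filter only through lung stroma, this difference is given as a description. Tslp encodes an alarmin that also acts on ILC2s. Its low level in lung stroma overlapped with Il33+ WAT-MSC, at 0.15 to 2.56 RPKM, and Il33- WAT-MSC, at 0 to 2.84 RPKM. Il1b was lower (-1.61, adjusted p = 0.0042), and the median of the 4 was -0.85. Il1rn, the IL-1 receptor antagonist, was lower in WAT endothelial cells than in lung epithelial cells (-1.46, adjusted p = 0.0132). Of 4 processing enzyme genes tested, the calpain genes Capn1 (1.22) and Capn2 (1.12) were higher in lung stroma than in epithelium (median 0.36), and Capn2 (1.20) was higher in endothelium than in epithelium.

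All 6 genes of the PAPP-A axis of Stc2 (Stc1, Pappa, Pappa2, Igfbp4, Igfbp5, Igf1) were higher in lung Il33+ MSC than in lung epithelial cells. Of all genes 24.4% were called higher, and the median was 2.43 beside 0.13 over all genes. Pappa and Pappa2 passed the filter only through lung stroma. Igfbp4, the binding protein that PAPP-A cleaves, was 5.49 higher (adjusted p = 7.01e-07), at 631 to 634 RPKM in lung stroma. Against WAT endothelial cells 2 of the 6 passed, Pappa2 (1.84) and Igfbp4 (2.30, adjusted p = 0.0244), with a median of 0.75 beside 0.14. Here too Pappa2 passed the filter only through lung stroma, so its difference is given as a description. Stc1, the paralog of Stc2, was at 6.00 to 15.6 RPKM in lung Il33+ MSC and 6.99 to 14.1 RPKM in WAT endothelial cells. In Il33+ WAT-MSC, where Stc2 was highest, Stc1 was at 0.27 to 1.24 RPKM. Between endothelium and epithelium 4 of 5 tested were higher, namely Stc1 (2.87), Pappa (1.24), Igfbp4 (3.19) and Igf1 (3.42).

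Receptors that SHISA proteins can retain were split by cell type. Of 13 Shisa, Frizzled and FGF receptor genes, 5 were higher and 4 lower in lung Il33+ MSC than in lung epithelial cells, with a median of 0.70. Fgfr1 (3.87), Fzd4 (3.41), Fzd1 (3.19), Fzd7 (2.18) and Shisa5 (0.70) were higher, and Fzd6 (-2.39), Fgfr2 (-2.31), Fzd3 (-0.98) and Fgfr3 (-0.87) were lower. Against WAT endothelial cells Fzd2 (1.55, adjusted p = 0.0492) was higher and Fzd6 (-2.95, adjusted p = 0.00314) lower. Between endothelium and epithelium 2 of 12 were higher, Fzd4 (3.52) and Fgfr1 (2.55), and 3 lower, Fzd3 (-1.39), Fgfr2 (-2.76) and Fgfr3 (-1.59).

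Partners of ADAM23 and relatives of Pcdh1 are listed beside 24.4% of all genes called higher in lung stroma than in epithelium. Lgi4 and Pcdh19 passed that filter only through lung stroma, so nothing is read from the counts. Of 8 listed ADAM23 partner genes 5 were in the table. The secreted ligand genes Lgi2 (4.28) and Lgi4 (2.19) and the integrin gene Itgav (0.95) were higher in lung Il33+ MSC than in lung epithelial cells. Lgi3 (-1.91) was lower, and the median of the 5 was 0.95. None passed against WAT endothelial cells, and between endothelium and epithelium Lgi2 (2.93) was higher and Lgi3 (-1.72) lower. Lgi2 was at 31.1 to 37.5 RPKM in lung Il33+ MSC, 23.3 to 51.3 in Il33+ WAT-MSC and 26.8 to 29.0 in Il33- WAT-MSC, with overlap between the adipose stromal populations that Adam23 separated. Of 9 listed delta protocadherins 4 were in the table, and 3 of these were tested between lung stroma and epithelium. Pcdh7 (2.60), Pcdh18 (3.28) and Pcdh19 (2.31) were higher in lung stroma, whereas Pcdh1 did not pass. Pcdh17 (-1.85) was lower in lung stroma than in WAT endothelial cells. All 4 were higher in endothelium than in epithelium, Pcdh7 by 2.64, Pcdh17 by 1.68, Pcdh18 by 1.92 and Pcdh19 by 2.71. The CD200 receptor genes and the ALK and LTK receptor genes were not analysed here.

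The genes whose pattern was most like that of each member were ranked by Pearson's r of log2(RPKM + 1) over the 15 libraries among 9981 genes, as a description. The libraries share 5 populations, so the points are not independent, and the 6 WAT-MSC libraries among them chose the members. Il33 was most like Omd (r = 0.957), Shisa3 (0.942), Chrdl1 (0.933), Skil (0.929) and Fmo2 (0.924). Shisa3 and Stc2 were each nearest to Fmo2 (0.960 and 0.927). Omd encodes the matrix proteoglycan osteomodulin, and its mean was 12.8 RPKM in Il33+ WAT-MSC, 12.03 in lung Il33+ MSC, 4.36 in WAT endothelial cells and 1.41 in Il33- WAT-MSC. Cd200 was nearest to Cgnl1 (0.928), which encodes a junction protein, and Pcdh1 to Notch3 (0.856).

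Adam23 and Fam150b had different neighbours. Adam23 was most like Fgf10 (0.939), the growth factor of lung mesenchyme, with a mean of 4.96 RPKM in Il33- WAT-MSC, 4.54 in lung Il33+ MSC and 0.86 in Il33+ WAT-MSC. Fam150b was most like the angiotensinogen gene Agt (0.974), with a mean of 11.8 RPKM in Il33- WAT-MSC and 0.47 in lung Il33+ MSC, followed by Psat1 (0.942), Vtn (0.940), Bmper (0.934) and Chrm3 (0.928). Over the 9 libraries of the 3 populations outside the choice, Il33 and Shisa3 correlated at r = 0.979 and Il33 and Stc2 at 0.828. There Il33 was nearest to Adm (0.998) and Podn (0.997), and Shisa3 to Adamts2 (0.992). Adam23 correlated with Il33 at 0.055 over the 15 libraries and at 0.799 over these 9, from which Il33- WAT-MSC were absent.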

How the data were processed

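The authors deposited RPKM values for 12698 RefSeq transcripts in 15 libraries, rounded to 2 decimals. RNA was amplified with a kit that does not mark strand (Ovation RNA-seq System V2), reads were aligned with TopHat2 in Partek Flow, and the submitters' processing notes name build mm10. The annotation release, the handling of shared reads and the filter on transcripts are not given in the sources used here, and 41 transcripts were below 1 RPKM in all libraries. RPKM scales by length and depth but not by RNA composition, so a few abundant transcripts lower all others.

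Here RPKM were summed per symbol to 10222 genes and analysed as log2(RPKM + 1), which understates changes of low genes. Comparisons of lung Il33+ MSC, WAT endothelial and lung epithelial cells used limma 3.58.1 (lmFit, eBayes with trend) in R 4.3.3 on 6 libraries each, for genes of at least 1 RPKM in 3 of these, with Benjamini-Hochberg adjustment. The code was tested on simulated data. p-values measure the spread between 3 libraries per population; 3 against 3 allows no exact permutation p under 0.1, so none is given. Named genes are the 7 members, members of the pathway lists that passed a test, those just inside and outside the choice, and the 5 genes most correlated with each member. Members and lists were chosen with earlier results of these data known. Promoters came from RefSeq tables (GRCm38.p6), where 6 of the 7 genes have a promoter entry; the position of Pcdh1 is not reported here. Figures used matplotlib 3.10.9. The number of value columns without a sample was 0. Lanes are those in the library labels. Alternatives covered the pseudocount, filter, scaling, transcripts, libraries fitted, lane and replicate block.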

Additional observations from a re-analysis of the deposited data

How the results depend on the processing

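Other settings were transcripts as deposited, the most abundant transcript, a pseudocount of 0.1, no filter, a minimum of 5 RPKM, median-ratio and quantile scaling, all 15 libraries in 1 fit, the lane as covariate, replicate number as a block, and each library left out. Of 269 log2 differences of members under these settings, 252 kept direction and side of the threshold. Reversals were Pcdh1 between lung Il33+ MSC and lung epithelial cells without lung Il33+ MSC replicate 1 (0.16) or lung epithelial replicate 2 (0.57; range -0.37 to 0.57 over left-out libraries), and Stc2 between lung Il33+ MSC and WAT endothelial cells without endothelial replicate 3 (0.23; range -0.55 to 0.23); none of these differences passed the threshold. The minimum of 5 RPKM, which tests fewer genes, gave 1069 genes lower in lung Il33+ MSC than in lung epithelial cells (1734 as reported). Between endothelium and epithelium it gave 778 lower (1183 as reported) with 2 members called (4 as reported). There Shisa3 and Stc2 did not reach the minimum and were not tested, while Il33 and Cd200 kept their calls. Between lung Il33+ MSC and WAT endothelial cells, all 15 libraries in 1 fit gave 534 genes higher (263 as reported), and leaving out 1 library gave 78 to 455 higher, 181 to 605 lower and 1 to 4 members called. The cause was not tested. Median-ratio scaling moved the median of all genes by -0.19, -0.10 and -0.21 in the 3 comparisons. Deviations of same-numbered libraries correlated at 0.0315 to 0.144. Differently numbered libraries were not set beside them, so this cannot decide whether the replicate number pairs the libraries. With the replicate block, 2369, 311 and 1489 genes were higher, against 2285, 263 and 1377 without it. The members called were 3, 2 and 4 with and without the block. Mean Il33 in lung Il33+ MSC was 29.5 RPKM by its most abundant transcript alone. Without the filter, Fam150b differed by 0.89 (adjusted p = 0.0363) between endothelium and epithelium and passed in neither other comparison.

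With 3 libraries per population, differences near 1 log2 unit lay within the intervals of Pcdh1, and values under about 1 RPKM, such as Shisa3 in Il33- WAT-MSC, rest on few reads.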
